A study of Mus musculus with 24 samples.

Results

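The unfolded protein and ATF4 response genes are 33 genes that were chosen by name, as the rows of the granulosa cell and oocyte count tables that carry one of 33 gene symbols, out of 78298 rows in each table. Of these, 19 encode folding and quality control proteins of the endoplasmic reticulum (ER), 6 encode stress sensors and transcription factors, and 8 are targets of the transcription factor ATF4. Every symbol was found, and each of the 33 genes passed the filter on low counts in each fit. Ddit3 had a second row (ENSMUSG00000116429) with 0 counts in all 24 libraries, and the row with counts (ENSMUSG00000025408) was used.

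The study sequenced RNA of granulosa cells, the somatic cells that surround the oocyte, and of oocytes from wild-type mouse ovarian follicles held in alginate, a gel, for 3 days in serum-supplemented medium with insulin, transferrin, selenium and follicle stimulating hormone (FSH, at 50 mIU/ml) in all 6 groups. In each cell type, 4 libraries came from control follicles, 4 from follicles with 20 µM blebbistatin, an inhibitor of the motor protein myosin II, and 4 from follicles under a dextran pressure of 10 kPa. Follicles had passed 180 µm before separation by hand, each oocyte library held 1 to 2 oocytes, and granulosa cell libraries were pools of many cells. The sources used here do not give the strain or age of the mice or say if solvent alone was added to the control medium. The replicates are called biological, but it is not stated that each had its own animals or culture, so each p-value rests on the spread between these libraries only, some of which may be technical.

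Proteins bound for the cell surface or for secretion are folded in the ER. When unfolded proteins build up there, the sensors IRE1 (encoded by Ern1), PERK (Eif2ak3) and ATF6 (Atf6) start the unfolded protein response: IRE1 splices the Xbp1 transcript into one that encodes an active factor, ATF6 is cut to free a factor, and PERK phosphorylates eIF2, which slows translation in general and favours translation of ATF4. XBP1 and ATF6 raise chaperones and degradation genes, whereas ATF4 also answers amino acid shortage through another eIF2 kinase and raises genes of amino acid synthesis and transport. Growing oocytes secrete zona pellucida proteins, and granulosa cells secrete inhibins, anti-Müllerian hormone and matrix. Splicing of Xbp1, cleavage of ATF6 and phosphorylation of eIF2 are not visible in gene counts.

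The promoters of these genes hold known elements of both branches, and the stretches below are shown because they carry those elements in genes that the results turn on. RefSeq promoter windows (build GRCm38.p6) matched 30 of the 33 genes, and the 250 bases before the start were searched on both strands. The ER stress element, CCAAT and CCACG with 9 bases between, was found in 8 of the 30 (26.7%): Hspa5, Hsp90b1, Dnajc3, Creld2, Calr, Canx, Pdia6 and Syvn1. It was in 0.13% of all 27025 genes with a window. Its short form ERSE-II, ATTGG and CCACG with 1 base between, was found in Herpud1 and in 0.037% of genes. The C/EBP-ATF element, TGATG and AA with 1 base between, was found in Asns, Pck2, Chac1 and Herpud1, 13.3% of the matched genes, and in 3.91% of all genes. The core CCACG alone, which the longer ER elements contain, was in 73.3% of the matched genes and in 31% of all. Each stretch below runs 5′ to 3′ along the gene's own strand, ends at the base before the start, and has the fixed bases of the matched elements in capitals.
Hspa5 (chr2:34772010-34772089, plus strand): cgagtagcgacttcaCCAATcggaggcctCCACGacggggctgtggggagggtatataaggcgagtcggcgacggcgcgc
Hsp90b1 (chr10:86705445-86705671, minus strand): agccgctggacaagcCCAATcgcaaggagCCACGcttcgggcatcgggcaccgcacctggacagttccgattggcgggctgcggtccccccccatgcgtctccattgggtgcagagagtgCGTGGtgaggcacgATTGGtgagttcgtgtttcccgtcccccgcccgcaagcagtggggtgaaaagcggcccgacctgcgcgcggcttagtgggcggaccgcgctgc
Herpud1 (chr8:94386302-94386428, plus strand): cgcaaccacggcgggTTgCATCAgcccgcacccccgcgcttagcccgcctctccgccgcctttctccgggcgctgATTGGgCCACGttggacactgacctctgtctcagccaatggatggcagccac
Asns (chr6:7693210-7693247, minus strand): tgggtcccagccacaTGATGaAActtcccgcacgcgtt
Pck2 (chr14:55540148-55540265, plus strand): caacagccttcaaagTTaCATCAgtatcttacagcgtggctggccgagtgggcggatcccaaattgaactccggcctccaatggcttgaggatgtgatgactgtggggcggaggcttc
In this window Hspa5 has 1 exact match to the ER stress element and Hsp90b1 has 2, the second on the opposite strand. Elements that deviate from these letters were not searched. Herpud1 holds both kinds of element, with the C/EBP-ATF element on the opposite strand, as in Pck2. A match is a description of these letters and does not show binding.

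The 12 granulosa cell libraries held 16432256 to 22430951 counts and the 12 oocyte libraries 14244057 to 18399462, so that 3 counts, the floor used for a gene with no counts, equal 0.134 to 0.211 CPM (each count scaled to the library total). Levels are CPM relative to the library total without further scaling, as the mean ± SD of 4 libraries. Changes are log2 changes ± SE from edgeR with TMM scaling, and a gene is called where the p-value adjusted over all genes tested is under 0.05. The labelled cell types carried their markers. All 12 granulosa cell markers reached 1 CPM in at least 1 library of each granulosa cell group, as did all 12 oocyte markers in each oocyte group. By that measure the oocyte groups also held 8 to 12 of the granulosa cell markers, but these summed to at most 2473 CPM there against at least 17215 CPM in granulosa cells. Some libraries stood apart. Among oocytes, control replicates 1 and 2 and blebbistatin replicate 1 held granulosa cell transcripts, with summed granulosa cell markers of 588, 2473 and 404 CPM against 60.3 to 146 CPM in the other 9 oocyte libraries. Among granulosa cells, blebbistatin replicates 1 and 2 held macrophage and blood markers at 600 and 913 CPM in sum against 1.66 to 10.7 CPM in the other 10, and blebbistatin replicate 1 detected 14538 genes against 18605 to 24297. Theca and stromal markers summed to 408 to 1599 CPM in the blebbistatin group and 21.3 to 384 CPM in the other 2 granulosa cell groups.

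The comparison of control oocytes with control granulosa cells asked how the 2 cell types of a follicle differ in these genes, and the difference was large. Of the 33 genes 28 were called (84.8%), 22 lower and 6 higher in oocytes. Among all 20601 genes tested, 77.3% were called, 44.4% higher and 32.9% lower. Calls as such were thus nearly as common among all genes, while the members' calls were mostly lower and those of all genes mostly higher. The median log2 change of the members was −1.44 against 0.41 for all genes. The median of all genes was 0.06 when libraries were scaled by their totals alone, so each change below is to be read against a shift of about that difference. With that scaling 24 members were lower and 4 higher. The calls of all genes were then nearer to an even split between higher and lower, with the counts given in the last section. In the granulosa cell pools the share of cells with a transcript and its amount per cell cannot be told apart, whereas each oocyte library held 1 to 2 oocytes.

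**Figure D1:**
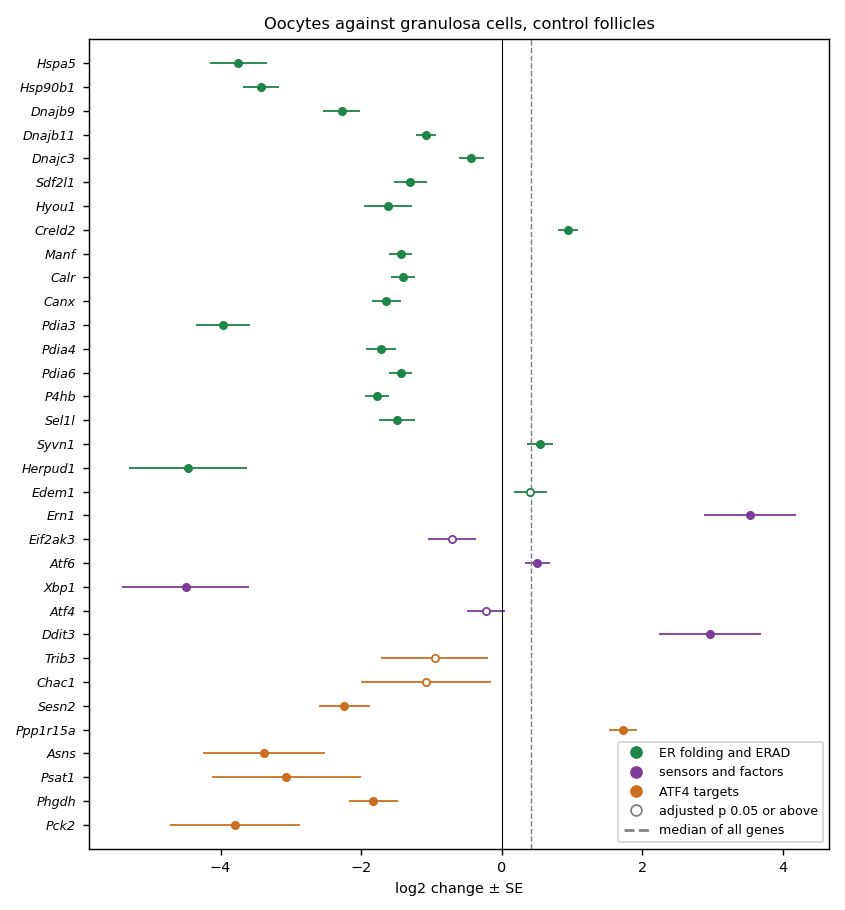
Log2 change ± SE of the 33 genes in control oocytes against control granulosa cells (edgeR, 24 libraries), filled where the adjusted p is under 0.05, with the median of all genes as a dashed line. ER folding genes lie mostly left of 0, down to −4.47 for Herpud1, while Ern1, Ddit3 and Ppp1r15a lie right of it.

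The ER chaperones were lower in oocytes in 8 of 9 cases. Hspa5 (ENSMUSG00000026864) encodes BiP, the main ER chaperone and a brake on all 3 sensors. Its 4 control granulosa cell libraries stood at 5711, 6341, 6244 and 5514 CPM and its 4 control oocyte libraries at 271, 755, 174 and 131 CPM. The groups did not overlap, and the highest oocyte value was in replicate 2, the library with most granulosa cell transcripts. The log2 change was −3.75 ± 0.41 (edgeR adjusted p = 5.65e-08), and −5.02 ± 0.26 without the 3 oocyte libraries that stood apart. Hsp90b1 (ENSMUSG00000020048), the ER form of HSP90, was at 2769, 3066, 3138 and 2860 CPM in granulosa cells and at 168, 368, 134 and 179 CPM in oocytes. Its log2 change was −3.42 ± 0.26 (edgeR adjusted p = 1.96e-10).

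Among the J-domain co-chaperones of BiP, Dnajb9 was at 15.4 ± 6.0 CPM in oocytes against 95.9 ± 10.4 in granulosa cells, Dnajb11 at 141 ± 13.1 against 381 ± 40.0, and Dnajc3, which also inhibits eIF2 kinases, at 280 ± 46.3 against 484 ± 40.6. Their log2 changes were −2.28, −1.08 and −0.44, and the call for Dnajc3 (edgeR adjusted p = 0.0323) was lost without granulosa cell control replicate 2 or without oocyte control replicate 1, 3 or 4, with an adjusted p of up to 0.122. The chaperone Hyou1 was at 7.66 ± 2.76 against 30.6 ± 4.46 CPM, the BiP co-factor Sdf2l1 at 71.3 ± 6.57 against 224 ± 45.6 CPM, and Manf, a secreted ER stress protein, at 213 ± 19.4 against 737 ± 115 CPM. Creld2, a secreted ER protein induced by stress, was the exception. It was at 463, 461, 511 and 417 CPM in oocytes against 322, 353, 319 and 231 CPM in granulosa cells, above them in every library, with a log2 change of 0.94 ± 0.14 (edgeR adjusted p = 3.95e-06).

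The lectin chaperones, which hold glycoproteins until they are folded, were both lower in oocytes. Calr (calreticulin) was at 338, 442, 354 and 291 CPM against 1232, 1208, 1197 and 1204 CPM, a log2 change of −1.40 ± 0.17, and its membrane-bound relative Canx had one of −1.64 ± 0.21. All 4 disulphide isomerases were lower too. Pdia3, which works with both lectins, was at 3135, 3090, 3017 and 2840 CPM in granulosa cells and 111, 322, 80.4 and 70.4 CPM in oocytes, a log2 change of −3.97 ± 0.39 (edgeR adjusted p = 1.27e-08). P4hb, the classical isomerase, was at 1838, 1797, 1708 and 1537 CPM against 383, 494, 352 and 331 CPM, a log2 change of −1.78 ± 0.17 (edgeR adjusted p = 6.58e-09). The isomerases thus differed among themselves: the changes of P4hb, Pdia4 (−1.72) and Pdia6 (−1.43) lay close together and that of Pdia3 was more than 2 log2 units further down.

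The 4 genes of ER-associated degradation, which exports misfolded proteins for destruction, split in a different way. Herpud1, a membrane scaffold of the export complex, was at 246, 350, 240 and 296 CPM in granulosa cells and at 5.91, 27.3, 3.21 and 1.38 CPM in oocytes (log2 change −4.47 ± 0.84, and −6.68 ± 0.89 without the 3 oocyte libraries that stood apart). Sel1l, the adaptor of the ubiquitin ligase, was at 72.8 ± 22 against 264 ± 31.7 CPM (−1.49 ± 0.26). Its partner, the ligase Syvn1, was at 37.5, 39.3, 58.8 and 53.1 CPM in oocytes against 42.6, 34.5, 39.5 and 46.2 CPM, so the libraries overlapped. Syvn1 was called higher (log2 change 0.55 ± 0.18, edgeR adjusted p = 0.011), but with library totals as the scale the edgeR adjusted p was 0.326, the highest of a range from 0.00249 over the alternatives. Edem1, which directs mannose-trimmed glycoproteins to degradation, was at 22.3 ± 1.70 against 21.4 ± 2.42 CPM and was not called by edgeR, though DESeq2 called it.

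The sensors and factors went in both directions. Ern1 (ENSMUSG00000020715) was at 282, 337, 234 and 286 CPM in oocytes and at 34.4, 28.8, 27.9 and 35.4 CPM in granulosa cells, with every oocyte library far above every granulosa cell library. Its log2 change was 3.53 ± 0.65 (edgeR adjusted p = 5.92e-05). The transcript that IRE1 splices went the other way: Xbp1 (ENSMUSG00000020484) was at 535, 529, 512 and 481 CPM in granulosa cells and at 14.7, 48.4, 2.90 and 0.899 CPM in oocytes. The log2 change of Xbp1 was −4.50 ± 0.90 (edgeR adjusted p = 0.00014) and −7.81 ± 0.91 without the 3 oocyte libraries that stood apart. Ddit3 (CHOP), a pro-apoptotic factor downstream of ATF4, was at 51.1, 38.2, 50.1 and 52.1 CPM in oocytes and at 9.31, 4.86, 6.86 and 10.2 CPM in granulosa cells, a log2 change of 2.96 ± 0.72 (edgeR adjusted p = 0.000932). In the GENCODE annotation 3.97% of its exon bases lie opposite exons of Mars, the methionyl-tRNA synthetase gene, which is listed as Mars1 in the deposited tables and was lower in oocytes, at 57.4 against 232 CPM.

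Atf4 itself was at 143, 119, 110 and 61.9 CPM in oocytes and 177, 208, 110 and 155 CPM in granulosa cells, with a log2 change of −0.22 ± 0.27 (edgeR adjusted p = 0.464). With library totals as the scale it was −0.59 ± 0.26 (edgeR adjusted p = 0.0483), the lowest of a range that reached 0.99. Atf6 was called at a log2 change of 0.51 ± 0.18 (edgeR adjusted p = 0.0149). The Atf6 call was lost in 11 of 33 alternatives. Library totals as the scale gave 0.16 ± 0.18, and the edgeR, limma or DESeq2 adjusted p ran from 0.00188 to 0.435 over the alternatives. Eif2ak3 was at 6.55 ± 2.33 against 13.9 ± 2.32 CPM without overlap between the libraries and was not called (log2 change −0.71 ± 0.34, edgeR adjusted p = 0.0608), but 20 of 33 alternatives called it, with an adjusted p of 0.00499 to 0.16.

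**Figure D2:**
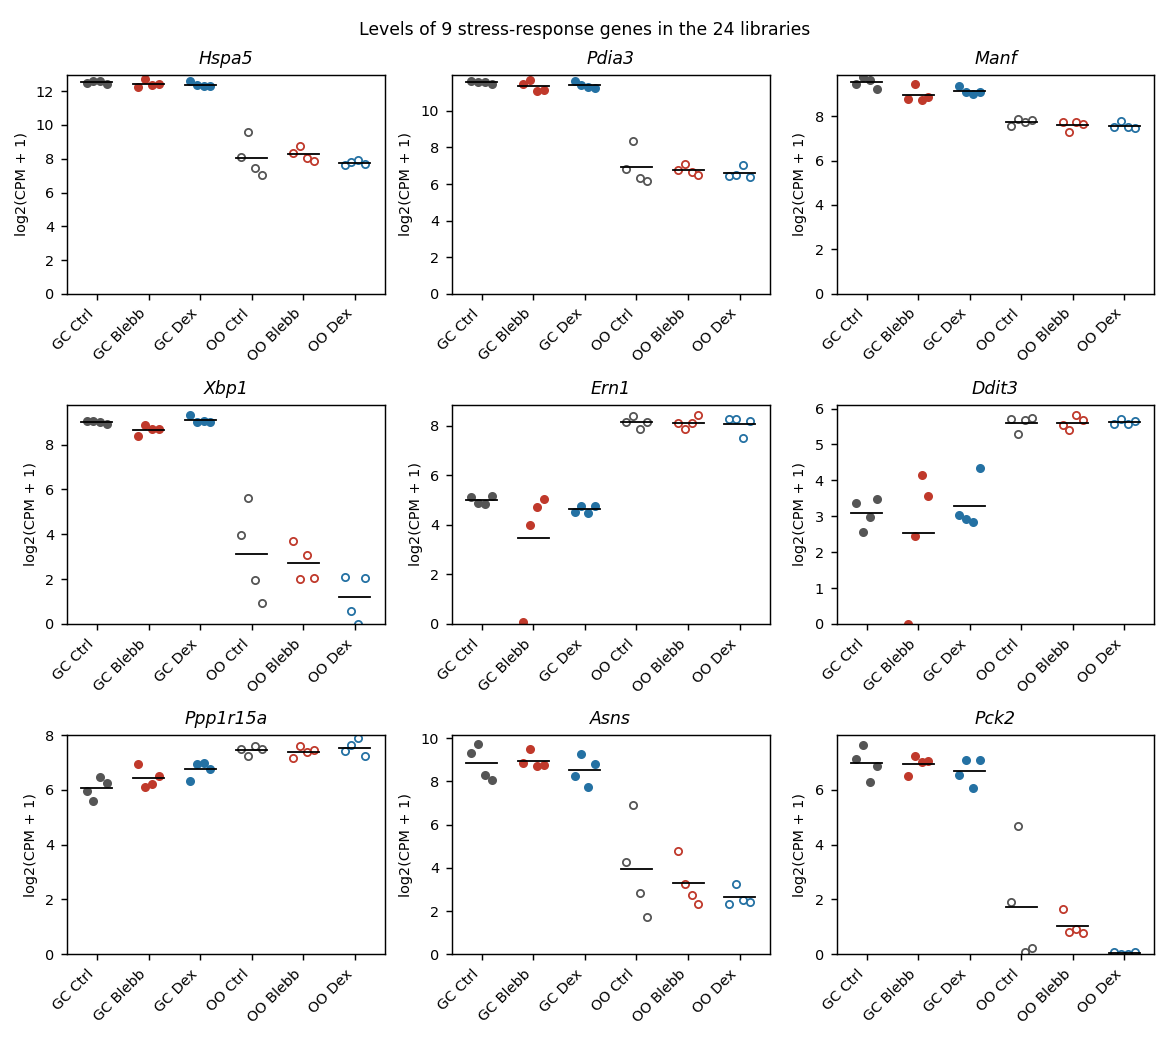
Levels as log2(CPM + 1) of 9 genes in the 24 libraries, with filled points for granulosa cells (GC), open points for oocytes (OO) and a bar at the mean of 4 libraries (Ctrl control, Blebb blebbistatin, Dex dextran). Ern1, Ddit3 and Ppp1r15a stand higher in oocytes, the other 6 stand lower, and the oocyte values of Xbp1, Asns and Pck2 spread widely.

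The 4 amino acid genes under ATF4 were all lower in oocytes. Asns (asparagine synthetase, ENSMUSG00000029752) was at 635, 864, 319 and 266 CPM in control granulosa cells and at 18.4, 120, 6.16 and 2.34 CPM in control oocytes. The log2 change of Asns was −3.39 ± 0.86 (edgeR adjusted p = 0.00144) and −6.67 ± 0.70 without the 3 oocyte libraries that stood apart. Phgdh and Psat1 catalyse the first steps of serine synthesis, and Pck2 is the mitochondrial enzyme that makes phosphoenolpyruvate. Phgdh was at 498, 559, 287 and 233 CPM in granulosa cells and 78.0, 144, 67.5 and 51.3 CPM in oocytes (log2 change −1.83 ± 0.35), and it remained well above 0 in all 12 oocyte libraries. Psat1 had a log2 change of −3.06 ± 1.06 (edgeR adjusted p = 0.0128; 0.0509 when fitted on the 8 control libraries alone) and Pck2 one of −3.80 ± 0.93. Without the 3 oocyte libraries that stood apart these were −7.18 ± 0.99 and −9.76 ± 0.64, fitted to few oocyte counts.

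The stress and feedback targets of ATF4 were mixed. Ppp1r15a (GADD34), which directs dephosphorylation of eIF2, was higher in oocytes, at 179, 149, 192 and 180 CPM against 60.7, 46.8, 88.1 and 74.8 CPM (log2 change 1.72 ± 0.20, edgeR adjusted p = 1.2e-07). Sesn2, a leucine sensor that restrains mTORC1, was lower, at 9.74 ± 3.29 against 57.7 ± 18.5 CPM. Trib3, a pseudokinase inhibitor of ATF4, and Chac1, a glutathione-degrading enzyme, were not called, although Trib3 was without oocyte control replicate 2. Chac1 was at 4.14, 8.32, 9.86 and 2.94 CPM in oocytes and 15.2, 34.8, 9.99 and 8.22 CPM in granulosa cells, with overlapping libraries.

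In 5 genes, picked out after their values were seen, the oocyte level followed the granulosa cell transcripts of the library. Inha (inhibin alpha), the granulosa cell marker used as a gauge, stood at 1.69%, 9.02% and 1.24% of its control granulosa cell mean in oocyte control replicates 1 and 2 and blebbistatin replicate 1, and at 0.320% or less in the other 9. The gauge depended on the marker. Among Gja1, Foxl2, Fshr and Hsd17b1 the share in control replicate 2 ran from 4.76% (Fshr) to 18.6% (Foxl2). Fshr stood at 1.09% in control replicate 1, 4.84% in blebbistatin replicate 1 and up to 1.03% in the other 9. Foxl2 and Fshr had few counts, 85 and 60 in control replicate 2. Xbp1 stood at 2.87%, 9.41% and 2.35% in control replicates 1 and 2 and blebbistatin replicate 1, and at 1.44% or less in the other 9. Herpud1 gave 2.09%, 9.66% and 2.43% against at most 1.63%, and Asns gave 3.53%, 22.9% and 5.15% against at most 1.65%. Psat1 gave 2.80%, 31.0% and 2.40% against at most 0.938%, and Pck2 gave 2.06%, 18.7% and 1.60% against at most 0.688%. In the 3 libraries together each of the 5 was thus above all other oocyte libraries. Over the 9 other libraries Psat1 and Pck2 had 42 counts each in all. Hspa5, at 2.20% to 7.34% in the 9, and Phgdh, at 11.9% to 20.6%, did not fall to such levels. How far granulosa cell RNA set these levels was not tested.

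**Figure D3:**
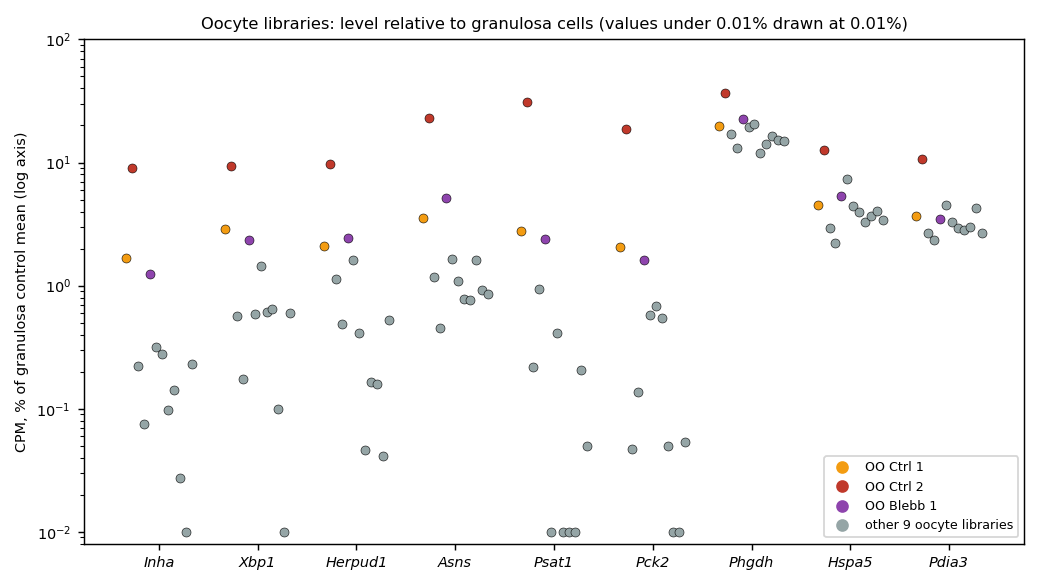
Level in each of the 12 oocyte libraries as a percentage of the control granulosa cell mean, on a log axis, with values under 0.01% drawn at 0.01%. The coloured points are the 3 libraries with granulosa cell transcripts, which lie above the 9 others for Inha, Xbp1, Herpud1, Asns, Psat1 and Pck2 while for Hspa5, Pdia3 and Phgdh only control replicate 2, with the most granulosa cell transcripts, stands clearly above the rest.

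The blebbistatin comparison in granulosa cells asked what blocking myosin II did to these transcripts. None of the 33 genes was called by edgeR, where 1 of 15370 genes was (0.00651%). At an unadjusted p under 0.05 there were 3 members, all lower, and 10.4% of all genes. DESeq2 called 0 members and 377 genes, and limma voom 0 members and 1 gene. The ER folding and degradation genes leaned downwards: 17 of 19 had a negative log2 change, with a median of −0.21, beside 54.6% negative and a median of −0.05 over all genes. Leaving out any 1 library kept 17 or 18 of 19 negative, with medians of −0.28 to −0.15, and without the 2 libraries with macrophage transcripts 18 were negative and the median was −0.36. In the chaperones blebbistatin replicate 2 did not show the lean: its 9 chaperones differed from the control mean by 0.00 on the log2(CPM + 1) scale, against −0.46, −0.41 and −0.41 in replicates 1, 3 and 4. The disulphide isomerases gave −0.21, 0.03, −0.58 and −0.54 in replicates 1 to 4. In the other lists replicate 2 was not alone. The lectin chaperones gave −0.02, 0.03, −0.38 and −0.29, and the degradation genes −0.05, −0.08, −0.34 and −0.00. Other measures moved with the treatment: mitochondrial transcripts took 3.86% to 9.53% of counts under blebbistatin and 2.6% to 4.52% in controls, the 12 granulosa cell markers summed to 17215 to 22413 CPM against 25802 to 33906 CPM, and stromal markers to 408 to 1599 CPM against 22.8 to 384 CPM. Their part in the lean was not tested.

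The members of smallest p were Manf and Xbp1 on the lower side. Manf stood at 433, 686, 425 and 463 CPM under blebbistatin against 704, 860, 792 and 593 CPM in controls, with only replicate 2 inside the control range. Its log2 change was −0.53 ± 0.17 (edgeR adjusted p = 0.275). Xbp1 was at 334, 463, 409 and 413 CPM, below all 4 controls, a log2 change of −0.32 ± 0.11 (edgeR adjusted p = 0.347). P4hb, at 1483, 1521, 1065 and 1120 CPM, was also below all 4 controls (−0.38 ± 0.14, edgeR adjusted p = 0.361). These were the 2 members with no overlap between groups, both lower, where 4.74% of all genes were lower and 2.12% higher without overlap. The main chaperones differed less: Hspa5 was at 4797, 6678, 5203 and 5448 CPM (log2 change −0.08 ± 0.11) and Calr at 1277, 1253, 855 and 936 CPM (−0.14 ± 0.13).

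The ATF4 targets did not share that lean: 3 of 8 were negative, and the median log2 change was 0.28. On the higher side the smallest p belonged to Ppp1r15a, at 122, 67.2, 73.9 and 90.4 CPM (log2 change 0.41 ± 0.22), and Phgdh, at 532, 592, 409 and 446 CPM (0.35 ± 0.33, edgeR adjusted p = 0.755). Asns, at 465, 732, 419 and 437 CPM, had a log2 change of −0.00 ± 0.39, and Atf4, at 169, 186, 222 and 214 CPM, one of 0.30 ± 0.29. Chac1 was at 10.7, 18.1, 25.2 and 29.9 CPM. A pair of regulators with low counts were all but missing from 1 library: in blebbistatin replicate 1, which detected the fewest genes, Ern1 stood at 0.0543 CPM and Ddit3 at 0 counts, which allows up to 0.163 CPM. The other 3 blebbistatin libraries had 15.0, 25.3 and 32.2 CPM of Ern1 and 4.49, 16.8 and 10.9 CPM of Ddit3.

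**Figure D4:**
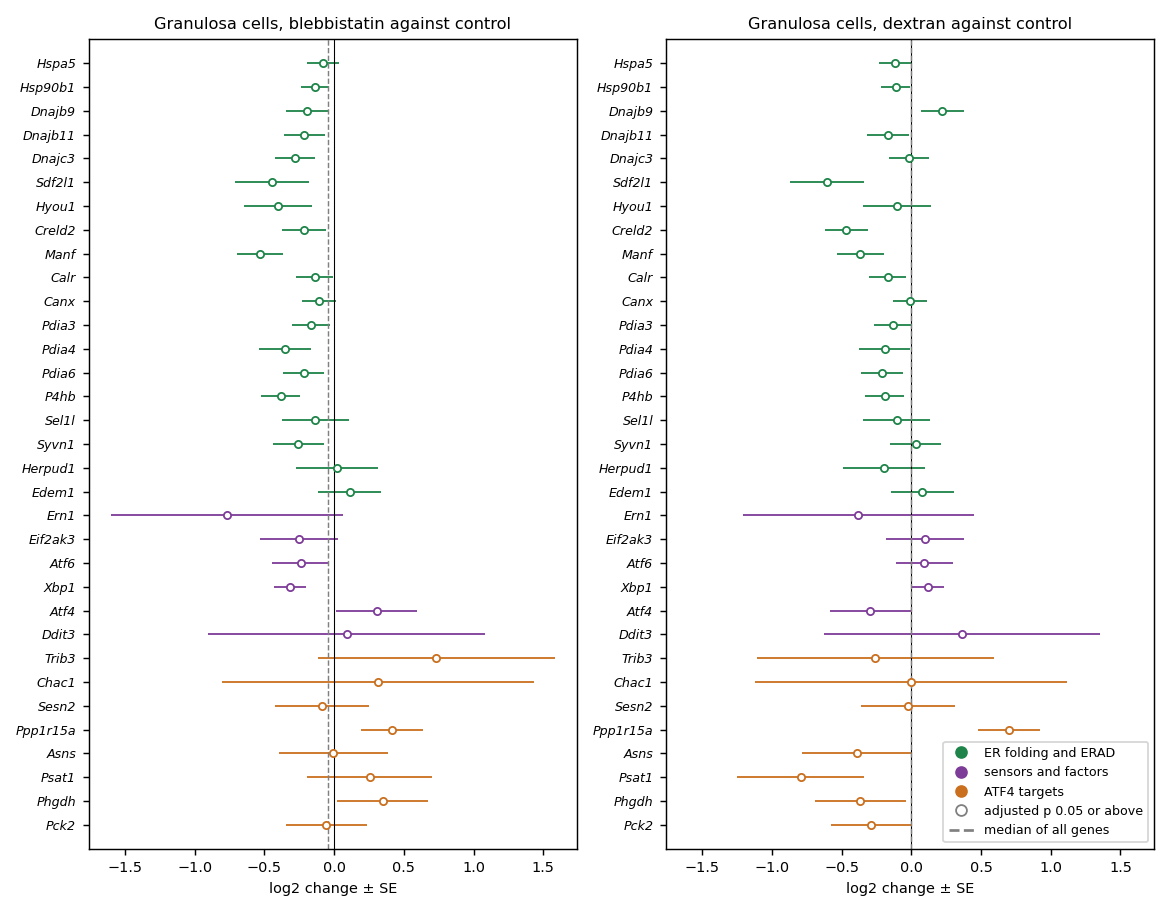
Log2 change ± SE of the 33 genes in granulosa cells under blebbistatin (left) and dextran (right) against control, all open because no gene passed, with the median of all genes as a dashed line. Most ER folding genes lie slightly left of 0 in both panels, and the targets of ATF4 spread to both sides under blebbistatin.

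The dextran comparison in granulosa cells asked the same of osmotic compression. No member was called by edgeR, limma voom or DESeq2, where edgeR called 0 of 15370 genes (0%) and DESeq2 42. At an unadjusted p under 0.05 there were 3 lower members and 1 higher, beside 3.4% of all genes. The 2 treatments were compared with the same 4 control libraries, so their changes are not independent. Under dextran 16 of 19 ER folding and degradation genes were negative, beside 50.5% of all genes. Their median log2 change was −0.13, beside −0.00 for all genes, and leaving out 1 library gave 14 to 18 of 19 negative and medians of −0.26 to −0.09. Dextran replicate 1 was the library without that lean, with the 9 chaperones on average 0.02 above the control mean on the log2(CPM + 1) scale, while replicates 2, 3 and 4 differed from it by −0.27, −0.30 and −0.32. The granulosa cell markers summed to 23321 to 28674 CPM under dextran, below the lowest control, 25802 CPM, in 3 of the 4 libraries, and the part of this was not tested. The ATF4 targets were mostly negative as well, 7 of 8 with a median log2 change of −0.27, among them all 4 amino acid genes (median −0.38). Leaving out 1 library gave 4 to 7 of these 8 negative and medians of −0.49 to −0.02.

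The lower members of smallest p were Creld2, at 261, 218, 198 and 198 CPM (log2 change −0.47 ± 0.16), and Sdf2l1, at 205, 140, 126 and 107 CPM (−0.61 ± 0.27). Control Sdf2l1 stood at 223, 265, 247 and 160 CPM, and for both genes the groups overlapped. Manf, the third at that p, was at 647, 548, 517 and 543 CPM (−0.37 ± 0.17). On the higher side Ppp1r15a was at 78.4, 123, 124 and 108 CPM, above its controls except in replicate 1, with a log2 change of 0.70 ± 0.22, and Dnajb9 was at 113, 90.2, 105 and 133 CPM (0.22 ± 0.15). The edgeR adjusted p of each of these 5 was 1. Ern1 was the 1 member without overlap, at 22.1, 25.9, 21.3 and 26.4 CPM below all 4 controls, where 2.66% of all genes were lower and 2.11% higher without overlap.

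The other genes followed throughout overlapped with their controls. Under dextran Hspa5 was at 6209, 5204, 5146 and 5077 CPM, Calr at 1245, 1029, 1039 and 927 CPM, and Xbp1 at 636, 519, 531 and 510 CPM. Atf4 was at 58.2, 140, 136 and 192 CPM and Ddit3 at 7.19, 6.59, 6.16 and 19.4 CPM. Chac1 spanned the widest range, at 0.264, 28.9, 0.332 and 38.7 CPM, so 2 libraries were near 0 and 2 were above most controls.

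The ATF4 targets tended to vary more between libraries of one group than the ER genes, a difference that was not tested. The within-group SD on the log2(CPM + 1) scale had a median of 0.59 (range 0.36 to 1.70) for the 8 ATF4 targets in granulosa cells, 0.22 (0.13 to 0.47) for the 19 ER folding and degradation genes and 0.39 for all genes tested, and the ranges overlapped. The amino acid genes largely shared their high and low libraries in the control and dextran groups. Under blebbistatin they did so less: Psat1 was highest in replicate 1, but Asns and Phgdh in replicate 2. In control replicates 1 to 4 Psat1 was at 164, 242, 85.8 and 70.8 CPM and Pck2 at 138, 196, 77.6 and 116 CPM, and Asns and Phgdh were also highest in replicate 2 and above the lower pair in replicate 1. Under dextran Asns was at 301, 610, 211 and 455 CPM, Phgdh at 256, 433, 154 and 369 CPM, Psat1 at 79.0, 139, 32.4 and 72.1 CPM and Pck2 at 92.5, 136, 65.9 and 134 CPM. All 4 were highest in dextran replicate 2 and lowest in dextran replicate 3, where their mean on the log2(CPM + 1) scale was 1.30 below that of the controls. The labels name no batch that would separate these libraries.

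**Figure D5:**
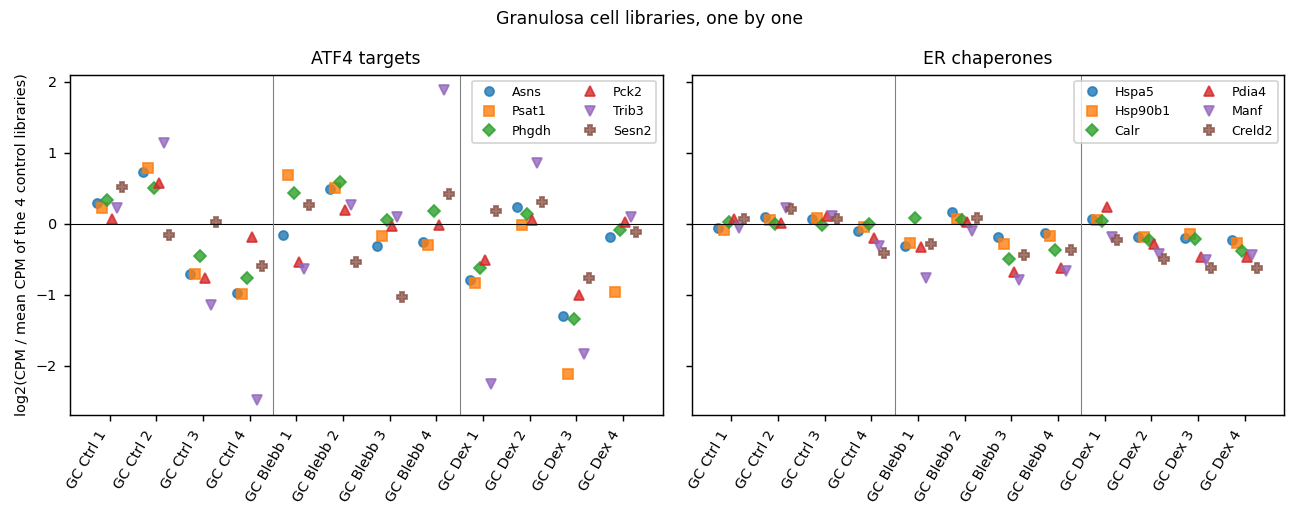
Log2 ratio of CPM to the mean of the 4 control libraries in each of the 12 granulosa cell libraries, for 6 ATF4 targets (left) and 6 ER chaperone and isomerase genes (right) on the same axis. The ATF4 targets drawn range from below −2 to almost 2 and are high or low together in some libraries, while the ER genes drawn stay within 1 log2 unit of the controls. Not drawn are the ER genes of largest within-group SD, Herpud1 (0.47) and Sdf2l1 (0.42). The ATF4 targets of largest and smallest SD, Chac1 (1.70) and Ppp1r15a (0.36), are not drawn either.

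Blebbistatin against dextran in granulosa cells asked whether the treatments differed, in a fit with its own contrast. No member was called by edgeR (0 of 15370 genes, 0%), and 2 members were higher and 2 lower at an unadjusted p under 0.05 beside 8.84% of all genes. Xbp1 was lower under blebbistatin, with all 4 libraries, up to 463 CPM, below the 4 dextran libraries, which began at 510 CPM. Its log2 change was −0.44 ± 0.11 (edgeR adjusted p = 0.309), and DESeq2, which called 214 genes, gave an adjusted p of 0.0475, the lowest of a range that reached 0.653. Xbp1 was the 1 member without overlap, where 3.89% of all genes were lower and 1.71% higher. Dnajb9 was also lower under blebbistatin, at 66.5, 98.1, 79.2 and 86.1 CPM (−0.42 ± 0.15, edgeR adjusted p = 0.477). The 4 amino acid genes were all positive, among them Psat1, at 227, 199, 125 and 114 CPM under blebbistatin (1.05 ± 0.46, edgeR adjusted p = 0.54), and Phgdh (0.71 ± 0.33, edgeR adjusted p = 0.565).

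In oocytes no member was called by edgeR for blebbistatin, for dextran or for blebbistatin against dextran, and edgeR called 0 of 16749 genes (0%) in each. At an unadjusted p under 0.05 the members numbered 1, 5 and 1, and all genes 4.1%, 5.31% and 4.07%. DESeq2 called 14, 4 and 0 genes, among them 1 member, Pck2, for dextran. No member separated the blebbistatin and control groups, where 1.24% of all genes were higher and 1.46% lower without overlap. Of the 19 ER folding and degradation genes 15 were negative under blebbistatin and 14 under dextran, with median log2 changes of −0.09 and −0.11, beside 51.4% and 49.5% of all genes negative. This lean depended on single libraries. With 1 library left out, 7 to 15 of the 19 were negative for blebbistatin, with medians of −0.15 to 0.06. For dextran the ranges were 8 to 16 negative and −0.18 to 0.04. Creld2 was at 463 ± 38.4, 506 ± 33.2 and 477 ± 39.8 CPM in control, blebbistatin and dextran oocytes, and Hspa5 at 333 ± 288, 314 ± 88.8 and 215 ± 19.6 CPM. Among the sensors and factors, Ddit3 was at 47.9 ± 6.53, 47.9 ± 6.15 and 48.5 ± 2.52 CPM and Ern1 at 285 ± 42.1, 282 ± 46.2 and 271 ± 60.7 CPM.

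For blebbistatin in oocytes the higher members of smallest p were Atf4, at 130, 155, 134 and 122 CPM (log2 change 0.33 ± 0.18), and Calr, at 395, 514, 388 and 350 CPM (0.21 ± 0.16). The lower ones were Psat1, at 3.38, 0, 0.583 and 0 CPM, and Pck2, at 2.11, 0.756, 0.907 and 0.726 CPM. Control Pck2 was at 2.72, 24.6, 0.0616 and 0.180 CPM, and control Psat1 at 3.94, 43.6, 0.308 and 1.32 CPM, so that their group means rest on control replicate 2. The edgeR adjusted p of each was 1. Pck2 had a log2 change of −2.59 ± 1.24, and one of 0.20 without oocyte control replicate 2.

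For dextran in oocytes the 5 members at an unadjusted p under 0.05 were Pck2, Psat1, Herpud1, Xbp1 and Asns, all lower. They are the same 5 that were picked out above for high values in oocyte control replicates 1 and 2, so the match is set by that choice. Summed granulosa cell markers were 78.3 to 2473 CPM in the control group, with all 12 markers at 1 CPM or more in some library, 87.3 to 404 CPM under blebbistatin, with 11 of 12, and 60.3 to 146 CPM under dextran, with 8 of 12. Pck2 had 2 counts in the 4 dextran libraries together against 497 in the 4 controls, a ratio of 0.00427 (95% exact binomial interval 0.000516 to 0.0155, for counting error only). Control replicate 2 held 453 of those 497 counts, and without it the ratio was 0.0348 (exact interval 0.00409 to 0.133). The fitted log2 change of Pck2, −7.37 ± 1.78, depends on the prior count near 0 (edgeR adjusted p = 0.857; DESeq2 adjusted p = 0.042, the lowest over the alternatives). Without the 3 libraries that stood apart it was −1.64 ± 1.46 (edgeR adjusted p = 0.98). Psat1, with 6 counts against 888, of which 803 were in control replicate 2, was the 1 member below all 4 controls, where 1.51% of all genes were lower and 0.896% higher without overlap. Its highest dextran library and its lowest control library, replicate 3 of each, both held 5 counts, at 0.290 and 0.308 CPM. The lack of overlap thus rests on a difference in library totals.

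Herpud1 under dextran was at 0.462, 0.450, 0.116 and 1.47 CPM (log2 change −3.87 ± 1.17) and Xbp1 at 3.30, 0.515, 0 and 3.09 CPM (−3.24 ± 1.27), where 0 allows up to 0.174 CPM. Without the 3 libraries the log2 changes were −1.85 ± 1.03 for Herpud1, −0.13 ± 1.05 for Xbp1 and 0.37 ± 0.48 for Asns, whose change with all libraries was −2.70 ± 1.10 (edgeR adjusted p = 0.897). On the higher side the smallest p belonged to Hyou1, at 11.1, 18.7, 11.9 and 5.83 CPM (0.68 ± 0.34), and Ppp1r15a, at 169, 196, 236 and 152 CPM (0.15 ± 0.15). Hspa5 under dextran was at 196, 220, 240 and 205 CPM, within the range of the controls.

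Blebbistatin against dextran in oocytes gave Pck2 higher under blebbistatin without overlap (log2 change 4.78 ± 1.80, edgeR adjusted p = 0.999), where 1.83% of all genes were higher and 0.961% lower in that way. This is a contrast of 71 counts with 2. Calr followed at 0.33 ± 0.16. On the lower side Trib3, at 1.69, 1.17, 3.82 and 1.85 CPM against 5.28, 3.09, 3.42 and 3.58 CPM, had a log2 change of −0.88 ± 0.50 and Ppp1r15a one of −0.21 ± 0.15.

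An interaction term, fitted to the 24 libraries together, tested whether the treatments acted differently in oocytes and granulosa cells, with control libraries shared by both treatments. No member was called for blebbistatin, where 10 of 20601 genes were (0.0485%), or for dextran, where 0 were (0%). At an unadjusted p under 0.05 there were 2322 genes (11.3%) for blebbistatin and 1912 (9.28%) for dextran, and DESeq2 called 382 and 210. Most of these were lower too: 1540 of the 2322 and 1598 of the 1912. The members at an unadjusted p under 0.05 numbered 2, both lower, and 8, of which 7 were lower. The smallest p belonged to Psat1 for blebbistatin, at −4.01 ± 1.52 (edgeR adjusted p = 0.335), and to Pck2 for dextran, at −7.36 ± 1.83 (edgeR adjusted p = 0.266). Pck2 for blebbistatin was at −2.72 ± 1.26 and Psat1 for dextran at −6.29 ± 1.90. DESeq2 called Pck2 for dextran (adjusted p = 0.0051), as did edgeR without oocyte control replicate 4, while without the 3 oocyte libraries that stood apart the value was −1.41 ± 1.12 (edgeR adjusted p = 1). On the positive side were Manf (0.33 ± 0.22) and Creld2 (0.27 ± 0.20) for blebbistatin and Creld2 (0.45 ± 0.20) and Sdf2l1 (0.52 ± 0.32) for dextran. The median of all genes was −0.10 and −0.16 in these contrasts, and −0.01 and −0.09 with library totals as the scale.

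Other genes of the same pathways, from lists of 9 to 28 genes, gave the setting for the 33. None was called by edgeR for any treatment in either cell type. Under blebbistatin in granulosa cells 22 of 28 other ER folding and degradation genes and 21 of 26 translocon and signal peptidase genes were negative (medians −0.15 and −0.11), while 16 of 17 cytosolic aminoacyl-tRNA synthetases, many of them ATF4 targets, were positive (median 0.18). Under dextran the corresponding negative counts were 17 of 28, 18 of 26 and 13 of 17, and 9 of 10 genes of serine, one-carbon and proline synthesis were negative (median −0.42). Of all genes tested in granulosa cells, 54.6% were negative under blebbistatin and 50.5% under dextran.

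Between control oocytes and granulosa cells the lists differed widely, beside 32.9% of all genes lower and 44.4% higher. Of the 28 other ER folding and degradation genes 19 were lower and 4 higher, with the glucosidase subunit Prkcsh (log2 change −2.40) and the segregase Vcp (−2.59) lower and the lectins Edem2 (1.34) and Os9 (1.29) higher. Of 26 translocon and signal peptidase genes 20 were lower, among them the oligosaccharyltransferase subunit Rpn1 (−2.84) and the translocon-associated protein Ssr4 (−2.28), and 4 were higher, among them Sec11c (1.58) and Srprb (1.12). Of 16 other sensors, eIF2 kinases and regulators 8 were lower, among them the ER-bound factors Creb3 (−1.83) and Creb3l2 (−4.14), and 6 were higher, among them Eif2b1 (3.13) and Eif2b4 (2.07), subunits of the factor that recharges eIF2.

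In each of the wider ATF4 lists more genes were lower than higher. Of 16 other ATF4 and CHOP targets 8 were lower, among them Atf5 (log2 change −2.86) and Vldlr (−4.52), and 4 higher, among them Slc7a11, the cystine transporter, at 194 against 4.5 CPM (5.78 ± 0.69), and the mTORC1 inhibitor Ddit4 (2.17). Of 10 genes of serine, one-carbon and proline synthesis 7 were lower, among them Aldh18a1 (−2.03) and Shmt1 (−2.26), and 2 higher, among them Mthfd2 (0.78). Of 9 amino acid transporters 7 were lower, among them Slc1a5 (−4.06) and Slc38a2 (−5.23), and Slc6a9, the glycine transporter, was the 1 higher, at 327 against 61.3 CPM (2.75 ± 0.28). Of 17 cytosolic aminoacyl-tRNA synthetases 11 were lower, among them Eprs1 (−1.72) and Kars1 (−1.15), and 5 higher, among them Qars1 (2.77) and Wars1 (1.17).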

How the data were processed

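The deposited tables, 1 per cell type, hold expected counts per gene for 24 libraries, estimated counts that the authors made with salmon, per the labels' name for the tables. Per the submitters' processing notes, reads were placed on GRCm39. The sources used here do not state the version or the strand setting, so reads of genes that overlap on opposite strands cannot be told apart. Counts were rounded. Levels are printed as CPM on library totals, where CPM with TMM scaling had been planned, so that each follows from its count.

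Genes with low counts were removed with filterByExpr, and edgeR 4.0.16 (quasi-likelihood, robust, TMM scaling, in R 4.3.3) was fitted to 12 libraries for comparisons within a cell type and to 24 for those between cell types. P-values were adjusted over all genes by the Benjamini-Hochberg method, with a threshold of 0.05. The alternatives were limma 3.58.1 (voom), DESeq2 1.42.0, other scalings, no filter, a replicate block, only the groups compared, and leaving out each library. Leaving out the libraries that stood apart was added after the data were seen. The code was tested on simulated data.

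The 33 genes and all lists were chosen with earlier results of these data known. Named by rule were, in each treatment comparison, the 2 members of smallest p in each direction, between cell types the 4 of smallest adjusted p, in each wider list up to 2 called genes per direction, and throughout Hspa5, Calr, Xbp1, Atf4, Ddit3, Chac1, Asns and Phgdh. Other members were named after their values were seen. Motifs were searched in RefSeq windows of build GRCm38.p6. Intervals and floors cover counting error only, since PCR copies were not marked.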

Additional observations from a re-analysis of the deposited data

Results flagged for a closer look

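In each group of 4 libraries, the gap between the highest or lowest library and its neighbour was divided by the range of the group. That ratio passed Dixon's critical value for 4 samples in 14 of 198 combinations of gene and group, where chance alone passes about 1 in 20.

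Among oocytes, control replicate 2, the library with most granulosa cell transcripts, was the high one for Pdia3 (322 CPM, ratio 0.841), Asns (120 CPM, 0.863), Psat1 (43.6 CPM, 0.916) and Pck2 (24.6 CPM, 0.892), and the low one for Ddit3 (38.2 CPM, 0.858). Blebbistatin replicate 1, which also held granulosa cell transcripts, was high for Pck2 (2.11 CPM, 0.869) and low for Pdia4 (118 CPM, 0.846). Dextran replicate 3 was low for Ern1 (181 CPM, 0.872).

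Among granulosa cells, dextran replicate 1 was high for Hspa5 (6209 CPM, ratio 0.887) and Xbp1 (636 CPM, 0.836), and dextran replicate 4 for Ddit3 (19.4 CPM, 0.922). Blebbistatin replicate 2 was high for Manf (686 CPM, 0.853) and Asns (732 CPM, 0.851), and blebbistatin replicate 1 for Edem1 (28.9 CPM, 0.92). Both of these blebbistatin libraries held macrophage and blood transcripts.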

How the results depend on the processing

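In the comparison of oocytes with granulosa cells, 26 to 29 of the 33 genes were called over all alternatives. Calls were nearly as common among all genes, at 77.3% in the main fit. In the treatment comparisons the count of 0 became 1 with DESeq2 for blebbistatin against dextran in granulosa cells (Xbp1), for dextran in oocytes (Pck2) and for the interaction with dextran (Pck2). Leaving out each library in turn gave 0 to 1 members for that last interaction, the 1 being Pck2 without oocyte control replicate 4. Pck2 changed sign. Its log2 change for blebbistatin in oocytes ran from −3.08 to 0.20 when 1 library was left out, with the positive value without oocyte control replicate 2, and was 2.64 without the 3 oocyte libraries with granulosa cell transcripts. Its interaction with blebbistatin ran from −3.27 to 0.47, again positive without that library, and was 2.72 without the 3; the cause was not tested. Psat1 got no value for dextran in oocytes without the 3 libraries, since too few counts remained. Of the results for single genes, 1831 kept their direction and side of the threshold, 27 were gained, 19 lost and 4 reversed.

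Counts over all genes moved more. DESeq2 called 377, 42 and 214 genes for blebbistatin, dextran and their contrast in granulosa cells, 14, 4 and 0 in oocytes, and 382 and 210 for the interactions. Without the 2 granulosa cell libraries with macrophage transcripts, edgeR called 26, 1 and 12 in granulosa cells and 130 for the interaction with blebbistatin. Leaving out blebbistatin replicate 2 alone took the granulosa cell blebbistatin calls from 1 to 115 and that interaction from 10 to 103, with 0 members among them. That interaction had 18 calls with voom, 5 with the replicate block and 3 without the 3 oocyte libraries, and the interaction with dextran had 91 without oocyte control replicate 4. With library totals as the scale, 8385 of 16096 calls between the cell types were higher.

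With the replicate number as a block, 28 members were called between the cell types and 0 in each other comparison. Same-numbered libraries correlated at −0.18 to 0.32 in granulosa cells and −0.13 to 0.18 in oocytes, over 0.1 in 4 and 3 of 12 pairs. Differently numbered libraries did so in 3 and 5 of 36 pairs. The medians were 0.03 and 0.04 for the same number and −0.01 and −0.02 for different numbers. The numbers were not taken as a pairing, and pairs across the cell types were not checked. Genes under 3 counts in a library were at the limit of depth.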
